A study of Homo sapiens with 34 samples.

Results

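Lymphoma lines that carry Epstein-Barr virus (EBV) were compared with lines that lack it, over 10 of the 34 B-cell lymphoma cell lines of the series. The EBV-positive lines were GRANTA519 and JVM2 of mantle cell lymphoma (MCL) and Raji and Daudi of Burkitt lymphoma (BL). The EBV-negative lines were Jeko-1, MAVER-1, Mino, REC-1 and Z-138 of MCL and Ramos of BL. EBV status was taken from general knowledge of these established lines, because the labels give the pathology and the line name but no viral status. The table held human genes, so carriage of the virus was not checked here. The labels named no treatment and no engineered allele for any of the 10 lines. The lines chosen were those whose status was taken as known, and the 24 other lines (4 MCL, 14 germinal centre and 6 activated diffuse large B-cell lymphoma) served only as context.

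Each line was a single RNA sequencing library, so p-values measure the spread between lines and not between cultures of a line. The recovered depth of the 10 libraries was 22.6 M reads in Daudi and 59.1 to 109 M in the other 9. Per the labels, Daudi and MAVER-1 were the lines of the 10 not marked as re-analysed from earlier data, and the protocol text says that the data were produced at more than one time, with no date for any library. Values are variance-stabilised log2 read counts. A gene without a read sits at 4.55 in every library, and 1 read is worth 4.73 to 4.89. Differences are EBV-positive minus EBV-negative lines with pathology as a covariate, given with the standard error (SE) of limma, a linear model across all genes, and a call is an adjusted p under 0.05.

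EBV persists in B cells by a small set of latent proteins. EBNA2 has no DNA-binding domain of its own and acts through the host factor RBPJ, the effector of Notch signalling, while LMP1 is a membrane protein that signals like an always active CD40 receptor and switches on NF-kB. Cells with the full latency programme resemble activated B cells, whereas many Burkitt cells restrict the virus to few proteins. As background, the virus of Daudi is deleted for EBNA2 and that of Raji for EBNA3C, Daudi lacks surface HLA class I because of a mutation in B2M, and JVM2 was established in the presence of EBV. These are general knowledge of the lines and were not measured here.

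Promoters of 3 genes and a pair of microRNAs are shown. Their genes are textbook targets of NF-kB and are described below with their values. The 3 promoters were taken from those that hold a kappaB match. The promoters are those of CCL22, a chemokine that attracts T helper cells, BIRC3, an inhibitor of cell death that also works in NF-kB signalling, and TNFAIP3, which encodes the NF-kB inhibitor A20. Capitals mark matches to the kappaB consensus on either strand, in the 250 bases before the RefSeq start (GRCh38.p14), written 5′ to 3′ on the gene's strand, which is plus for all 3.
CCL22, chr16:57358533-57358782: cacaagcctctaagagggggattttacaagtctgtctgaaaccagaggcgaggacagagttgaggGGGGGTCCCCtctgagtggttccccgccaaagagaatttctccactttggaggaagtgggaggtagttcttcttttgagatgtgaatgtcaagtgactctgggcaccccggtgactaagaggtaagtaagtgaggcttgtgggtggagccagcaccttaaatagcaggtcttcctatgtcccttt
BIRC3, chr11:102317234-102317483: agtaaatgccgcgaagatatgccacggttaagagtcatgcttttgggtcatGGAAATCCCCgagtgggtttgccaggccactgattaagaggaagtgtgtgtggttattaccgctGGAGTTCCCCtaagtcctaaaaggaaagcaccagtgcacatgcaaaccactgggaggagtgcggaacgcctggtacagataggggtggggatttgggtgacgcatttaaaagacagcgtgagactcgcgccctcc
TNFAIP3, chr6:137867009-137867258: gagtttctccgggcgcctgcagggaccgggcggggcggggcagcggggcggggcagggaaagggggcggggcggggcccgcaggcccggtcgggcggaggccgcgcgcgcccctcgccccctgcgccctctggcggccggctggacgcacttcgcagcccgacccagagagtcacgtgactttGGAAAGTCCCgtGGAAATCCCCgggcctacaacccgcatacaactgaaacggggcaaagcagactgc
A kappaB match was found in 7 of the 23 promoters matched for the 30 LMP1 and NF-kB target genes (30.43%), namely BIRC3, CCL22, CFLAR, NFKB1, NFKBIA, REL and TNFAIP3. Among the promoters without a match were those of TRAF1, TNIP1, ICAM1, BCL2A1, FAS, PLEK, LTA and MIR155HG. Of all 35116 RefSeq promoters of that length 5.21% held a match. The core motif of RBPJ, TGGGAA on either strand, occurred in 4 of the 23 (17.39%), against 20.85% of all promoters. A match is a description of the letters in this window and was not tested for binding.

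Mature miR-155-5p is made from MIR155HG, and miR-146a-5p lies within the transcription unit of MIR3142HG. Both microRNAs are known to be raised by NF-kB in B cells. Capitals mark the seed, bases 2 to 8, and the seeds differ.
hsa-miR-155-5p, chr21:25573983-25574006: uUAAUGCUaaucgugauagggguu
hsa-miR-146a-5p, chr5:160485372-160485393: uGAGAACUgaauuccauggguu

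Across the 16030 genes tested, no gene passed the threshold between the 4 EBV-positive and the 6 EBV-negative lines. The smallest adjusted p of limma was 0.124, shared by TBC1D8B and LINC01857. At an unadjusted p under 0.05 there were 1257 genes (7.84%), of which 751 (4.68%) were higher and 506 (3.16%) lower in EBV-positive lines. A second tool, voom on the recovered reads, also called 0 genes, with 1207 at an unadjusted p under 0.05. All 4 EBV-positive lines lay above all 6 EBV-negative lines for 123 genes (0.767%) and below them for 115 (0.717%). The median difference over all genes tested was 0.01. In bulk RNA a change in the level per cell and a change in the share of expressing cells cannot be told apart.

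TBC1D8B encodes a GTPase-activating protein of vesicle traffic. TBC1D8B measured 7.07 in GRANTA519, 8.45 in JVM2, 7.76 in Raji and 6.98 in Daudi, against 4.81, 4.92, 4.55, 4.84, 5.43 and 4.55 in Jeko-1, MAVER-1, Mino, REC-1, Z-138 and Ramos. The groups did not overlap, and the difference was 2.84 ± 0.37 (SE, 4 against 6 lines). TBC1D8B passed the filter on low values only through EBV-positive lines, so its difference could only be positive. LINC01857, a long non-coding RNA, lay between 9.32 in GRANTA519 and 11.75 in JVM2 in EBV-positive lines, and between 5.23 in REC-1 and 6.47 in MAVER-1 in EBV-negative lines, a difference of 4.39 ± 0.60. These and the other 8 genes with the smallest p (MIR3681HG, NFAM1, HSPG2, DLL3, GBP1, ENTPD2, FNDC10 and CSF1R) were chosen after their values were seen. HSPG2, DLL3 and FNDC10 had negative differences of -3.50, -3.25 and -2.23. DLL3, a member of the Notch ligand family, lay between 5.25 and 7.31 in EBV-positive lines and between 9.01 and 9.92 in EBV-negative lines.

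The LMP1 and NF-kB target genes leaned towards the EBV-positive lines. Of the 30 genes 28 had a positive difference, where 8169 of the 16030 genes tested had one, and the median was 1.57 against 0.01 over all genes tested. At an unadjusted p under 0.05, 14 of the 30 were higher and none was lower, where 4.68% of all genes tested were higher and 3.16% lower. None passed the threshold after adjustment. This list and those below were chosen with earlier results of these data known, so their counts describe the lists and are not independent tests. The median of the 30 genes within a line was 11.24 in GRANTA519, 13.25 in JVM2, 11.62 in Raji and 8.90 in Daudi, against 8.90 in Z-138 to 11.04 in Mino. Daudi and Z-138 were lowest, and the other 3 EBV-positive lines were above every EBV-negative line.

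**Figure D1:**
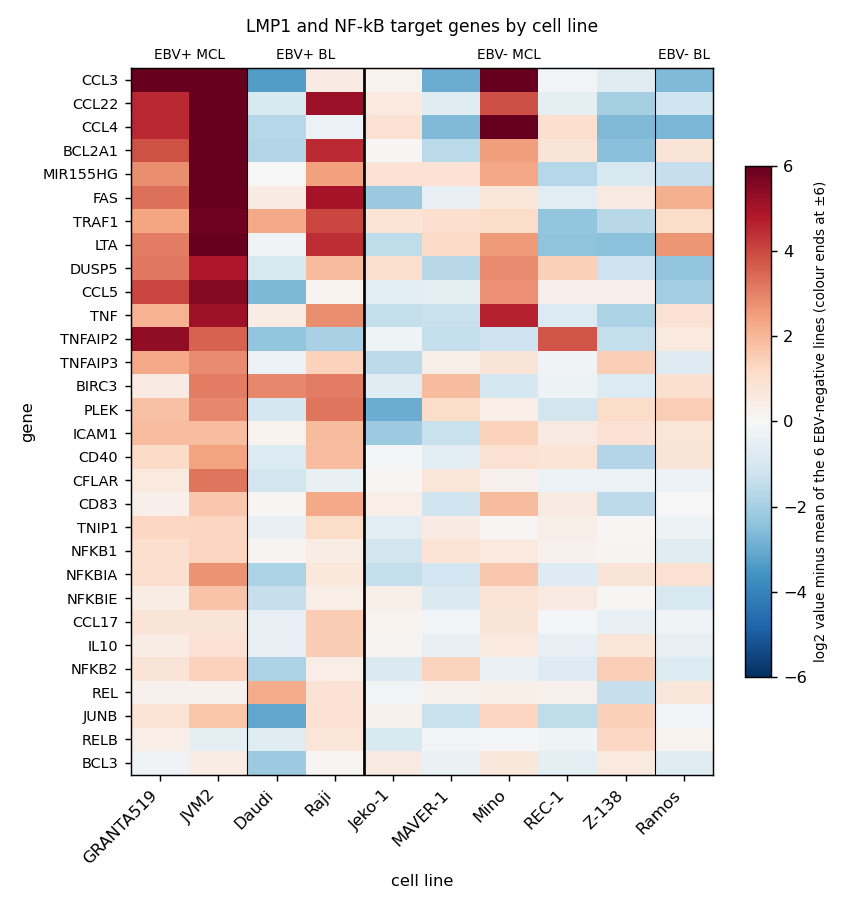
LMP1 and NF-kB target genes (rows, ordered by the difference between EBV-positive and EBV-negative lines) in the 10 lines (columns), as the log2 value minus the mean of the 6 EBV-negative lines. The columns of GRANTA519, JVM2 and Raji are mostly red and that of Daudi is mostly blue, with TRAF1, BIRC3 and REL red in Daudi too; among EBV-negative lines Mino is red for CCL3, CCL4, TNF and CCL22.

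TRAF1, an adaptor of tumour necrosis factor receptors and of LMP1 (ENSG00000056558, chromosome 9, 120902393 to 120929171 in GRCh38.p14), was the single gene of the list whose groups did not overlap. It measured 10.70 in GRANTA519, 14.16 in JVM2, 12.30 in Raji and 10.56 in Daudi, against 9.13 in Jeko-1, 9.33 in MAVER-1, 9.41 in Mino, 5.96 in REC-1, 6.66 in Z-138 and 9.39 in Ramos. The difference was 3.61 ± 1.0 with an adjusted p of limma of 0.36. BIRC3 was also high in Daudi, at 10.84 in GRANTA519, 13.45 in JVM2, 13.42 in Raji and 13.24 in Daudi, against 9.33 in Mino to 12.27 in MAVER-1. Here GRANTA519 overlapped with MAVER-1 and Ramos, and the difference was 1.99 ± 0.68.

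CCL22, whose promoter is printed above, gave 11.05 in GRANTA519, 13.85 in JVM2, 11.70 in Raji and 5.60 in Daudi, against 10.41 in Mino and 4.55 to 7.13 in the other 5 EBV-negative lines. The 3 lines other than Daudi were above every EBV-negative line, and Daudi lay within their range. The same 3 lines were above every EBV-negative line for MIR155HG, which gave 9.09 in GRANTA519, 14.05 in JVM2, 8.76 in Raji and 6.31 in Daudi, against 4.55 in REC-1 to 8.62 in Mino. The MIR155HG difference was 4.26 ± 1.17 (adjusted p of limma 0.36), and that of CCL22 was 4.92 ± 1.45 (adjusted p 0.39). MIR3142HG overlapped between the groups, at 7.77 in GRANTA519, 9.81 in JVM2, 6.63 in Raji and 5.30 in Daudi, against 5.36 to 6.68 in EBV-negative lines. Mature microRNAs were not measured.

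TNFAIP3 had 12.24 in GRANTA519, 12.79 in JVM2, 11.31 in Raji and 9.58 in Daudi, against 8.37 in Jeko-1 to 11.41 in Z-138, so Raji and Daudi overlapped with the EBV-negative lines. BCL2A1, which encodes the survival protein BFL1, had 10.91 in GRANTA519, 14.96 in JVM2, 11.54 in Raji and 5.30 in Daudi, against 4.55 in Z-138 to 9.57 in Mino. The chemokine genes CCL3 and CCL4 were high in Mino among the EBV-negative lines. CCL3 had 14.14 in GRANTA519, 17.08 in JVM2, 8.42 in Raji and 4.55 in Daudi, against 14.20 in Mino and 4.92 to 8.12 in the other 5 EBV-negative lines. CCL3, CCL4 and CCL3L3 lie in a cluster of near-identical copies, and how shared reads were counted is not given in the sources used here. The NF-kB subunit genes RELB and REL differed little, by -0.11 ± 0.48 and 0.54 ± 0.45, and NFKB1 by 1.01 ± 0.40.

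Genes known to be induced by EBV or by EBNA2 had the highest median difference of the 25 lists, 2.88 over 16 genes, of which 14 had a positive difference. At an unadjusted p under 0.05, 8 of the 16 were higher and 1, MYC, was lower, beside 4.68% higher and 3.16% lower among all genes tested. FCER2, the low-affinity IgE receptor CD23 and a classical marker of EBV-infected B cells, had 14.14 in GRANTA519, 11.93 in JVM2, 11.81 in Raji and 6.38 in Daudi, against 6.18 in Jeko-1 to 10.28 in Z-138. The difference was 4.53 ± 1.24 (adjusted p of limma 0.36), and the groups overlapped only through Daudi.

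**Figure D2:**
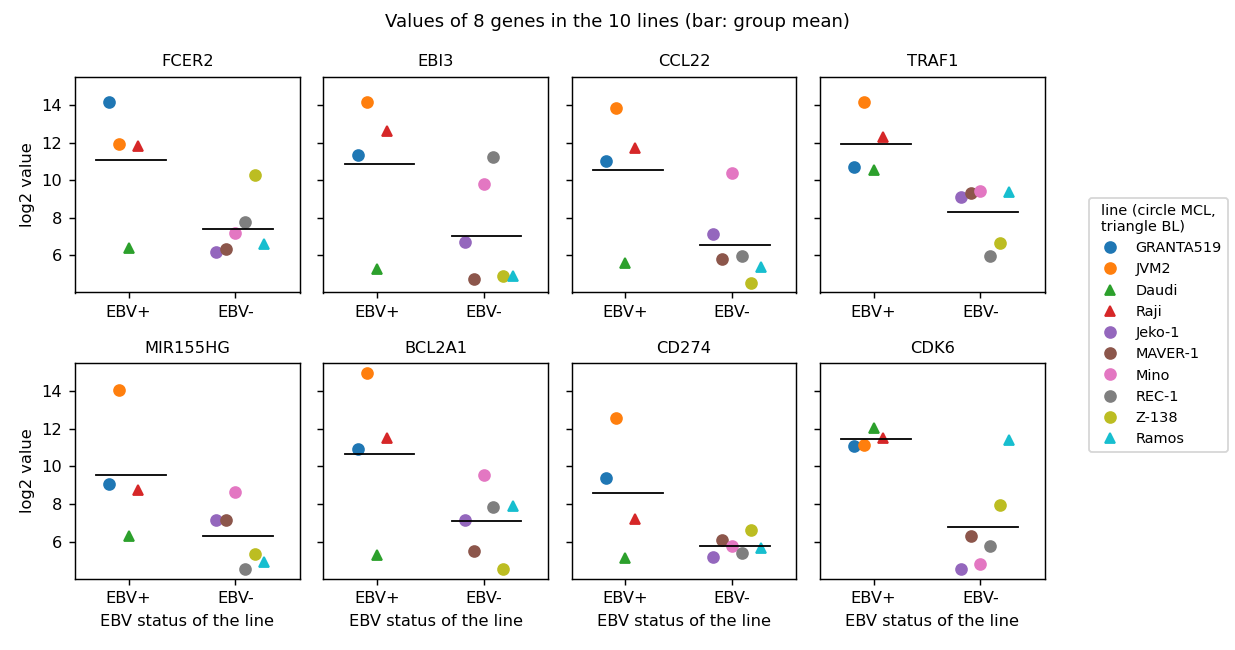
Log2 values of 8 genes in each of the 10 lines, with EBV-positive lines at the left of each panel and EBV-negative lines at the right; circles are MCL lines, triangles are BL lines and bars are group means. Daudi (green triangle) lies with the EBV-negative lines for FCER2, EBI3, CCL22, MIR155HG, BCL2A1 and CD274, while for CDK6 Ramos lies with the EBV-positive lines.

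EBI3, a subunit of the cytokines IL-27 and IL-35, had 11.32, 14.15, 12.63 and 5.30 in GRANTA519, JVM2, Raji and Daudi, against 11.24 in REC-1, 9.80 in Mino and 4.73 to 6.73 in the other 4 EBV-negative lines. SLAMF1, a receptor of lymphocyte activation, had 10.93, 14.18, 11.34 and 5.90 in the same order, against 4.87 in MAVER-1 to 6.37 in Ramos, with a difference of 5.74 ± 1.24. For SLAMF1 too the groups overlapped only through Daudi. FGR, a Src-family kinase, took another order, with 8.06 in GRANTA519, 12.58 in JVM2, 13.86 in Raji and 12.18 in Daudi, against 6.02 to 9.51. Daudi was high here and GRANTA519 overlapped with the EBV-negative lines.

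CR2, which encodes CD21, the receptor through which EBV enters B cells, had 7012 reads in GRANTA519, 9 in JVM2, 21152 in Raji and 2092 in Daudi. The EBV-negative lines had 4847 reads in REC-1, 601 in Ramos, 33 in Mino and none in Jeko-1, MAVER-1 and Z-138. JVM2 thus overlapped with the EBV-negative lines, and the difference was 2.89 ± 1.63 (adjusted p of limma 0.73). CCR7 and GPR183 (EBI2), receptors that guide B cells within lymphoid tissue, overlapped widely, with differences of 2.53 ± 1.55 and 2.04 ± 1.07. CCR7 was 11.39 to 15.45 in the EBV-positive lines other than Daudi and 5.03 in Daudi, against 5.76 in Ramos to 13.07 in Mino.

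MYC, a target of EBNA2 that BL lines also drive by translocation, had 12.13 in GRANTA519, 13.67 in JVM2, 14.46 in Raji and 13.83 in Daudi, against 13.48 in MAVER-1 to 15.48 in Z-138. The difference was -1.27 ± 0.53 with an unadjusted p of 0.036 and an adjusted p of limma of 0.59. CXCR4, a chemokine receptor gene, had 11.15 in GRANTA519, 13.52 in JVM2, 13.68 in Raji and 14.17 in Daudi, against 10.17 in REC-1 to 15.53 in Ramos. The difference was -1.26 ± 0.93 (adjusted p of limma 0.81), and the groups overlapped.

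Costimulatory and activation genes followed the same lines. This list shares members with the lists above, among them SLAMF1, FCER2, CD40, ICAM1 and FAS, so it is not a separate result. Of 20 genes 19 had a positive difference with a median of 2.22, and 9 had an unadjusted p under 0.05, all higher, beside 4.68% of all genes tested. Besides SLAMF1 and FCER2 these included CD80, a ligand of CD28 (4.16 ± 1.2), the death receptor gene FAS (4.12 ± 1.30), the adhesion gene CD58 (3.16 ± 1.0) and TNFRSF9, which encodes 4-1BB (3.08 ± 0.94). FAS had 10.75, 14.82, 12.45 and 7.93 in GRANTA519, JVM2, Raji and Daudi, against 5.23 in Jeko-1 to 9.57 in Ramos. The median of the list within a line was lowest in REC-1 at 7.59 and highest in JVM2 at 13.19, with Daudi at 8.62.

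Leaving out Daudi changed how many of these genes separated. Without it, GRANTA519, JVM2 and Raji lay above all 6 EBV-negative lines for 323 genes tested (2.01%) and below them for 265 (1.65%). Among the LMP1 and NF-kB targets 11 of 30 did so, namely TRAF1, TNIP1, ICAM1, BCL2A1, CCL22, CCL17, CD40, FAS, PLEK, LTA and MIR155HG. Of the EBV- and EBNA2-induced genes 5 of 16 did so (FCER2, EBI3, ACKR3, SLAMF1 and BCL2A1). Of the activation genes 7 of 20 did so (CD40, ICAM1, SLAMF1, FCER2, TNFRSF9, FAS and IL21R). The lists share members, so genes such as BCL2A1, FAS and SLAMF1 are counted in more than 1 list. With GRANTA519, JVM2 or Raji left out in place of Daudi, 2, 1 and 1 of the 30 NF-kB genes separated, where 2.0%, 1.07% and 1.28% of all genes tested did. Depth, re-analysis and line cannot be told apart for Daudi, which was the shallowest of the 10 libraries.

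**Figure D3:**
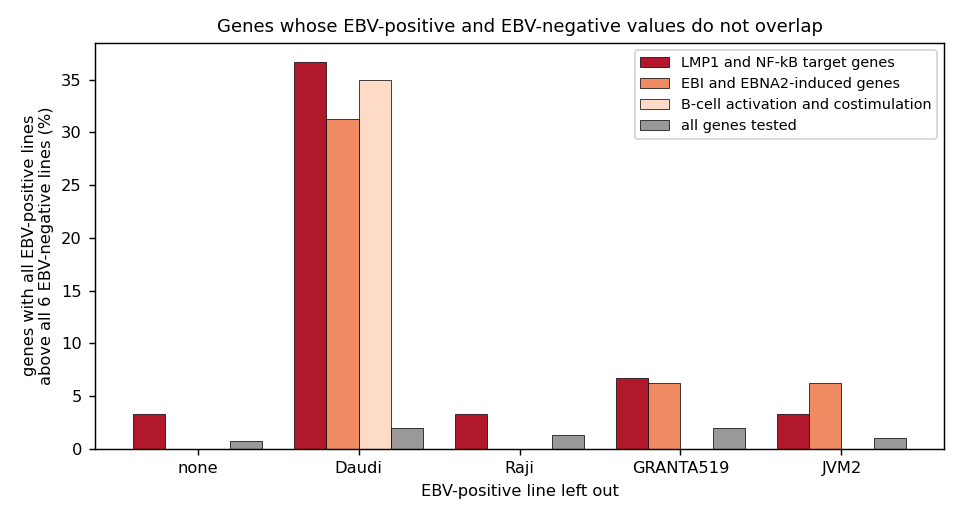
Share of genes for which all EBV-positive lines lie above all 6 EBV-negative lines (vertical axis, %), with no line or 1 EBV-positive line left out (horizontal axis), for 3 gene lists and for all genes tested. The bars of the lists are tallest without Daudi, where all genes tested stand at 2.01%.

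Without Daudi limma called 18 genes, 17 higher (0.106%) and 1 lower (0.00624%). The genes named from this fit were chosen after their values were seen. SLAMF1 was called with a difference of 6.75 (adjusted p of limma 0.011). Others were SH3RF1, a scaffold of JNK signalling, KCNMA1, a potassium channel, SSTR2, a somatostatin receptor, the transcription factor gene POU3F1, and NAP1L2, a histone chaperone gene with 144, 251 and 300 reads in GRANTA519, JVM2 and Raji and no read in Daudi or any EBV-negative line. KCNMA1 and NAP1L2 passed the filter on low values only through EBV-positive lines, so their differences could only be positive. NFAM1, a B-cell signalling receptor, TBC1D8B and LINC01857 were called as well. The gene that was lower was HSPG2, the gene of the matrix proteoglycan perlecan, at 6.60, 6.41 and 5.09 in GRANTA519, JVM2 and Raji, against 9.03 in REC-1 to 11.10 in Mino. FCER2 had an adjusted p of 0.091 in this fit and CCL22 one of 0.16.

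With the 24 other lines added to the estimate of the spread, limma called 56 genes, 52 higher (0.324%) and 4 lower (0.025%). Some of the 24 were much shallower than the lines compared, among them NU-DHL-1 at 2.55 M recovered reads and OCI-Ly1 at 4.84 M. Genes without reads in such libraries add little spread, and the part of depth in these calls was not tested. Among the list genes these were SLAMF1, CCL5, TNFRSF9 and CSF1R. SERPINB10, a serpin of myeloid cells, had 1048, 15934 and 179 reads in GRANTA519, JVM2 and Raji, and no read in Daudi or in any of the 6 EBV-negative lines. CSF1R, the receptor of the macrophage growth factor, was higher in all 4 EBV-positive lines at low values, 5.23 in Raji to 7.15 in JVM2, against 4.55 to 4.96. SERPINB10 and CSF1R passed the filter on low values only through EBV-positive lines, so their differences could only be positive. The 4 lower genes were DLL3, CIBAR2, SOX12 and ZCCHC3. The myeloid markers as a whole were low, with 3 or 4 of the 7 measured at or under 10 reads in each EBV-positive line and 4 to 6 in each EBV-negative line, and their part in the result was not tested.

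Genes of antigen presentation and of the interferon response had positive medians. All 16 class I genes had a positive difference (median 1.06), as had 13 of 14 class II genes (median 1.58) and 25 of 28 interferon-stimulated genes (median 1.51). At an unadjusted p under 0.05, 2 of the 16 class I, 0 of the 14 class II and 9 of the 28 interferon-stimulated genes were higher and none was lower. Over all genes tested 4.68% were higher and 3.16% lower, so the class II count was not above that share. B2M, the invariant chain of class I, had 16.87 in GRANTA519, 19.93 in JVM2, 15.81 in Raji and 12.84 in Daudi, against 15.21 in REC-1 to 16.57 in Jeko-1. Daudi was lowest and JVM2 highest of the 10, with a B2M difference of 1.12 ± 1.0. Without JVM2 the B2M difference was -0.30, so its sign rested on that line.

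REC-1 stood apart on the EBV-negative side in class II genes. HLA-DRA, the class II alpha chain, had 16.70, 18.55, 16.69 and 14.86 in GRANTA519, JVM2, Raji and Daudi, against 5.37 in REC-1 and 15.16 to 17.11 in the other 5 EBV-negative lines. The groups overlapped apart from REC-1, whose median over the class II list was 5.35, where the other 9 lines had 11.94 to 14.01. The class II median difference of 1.58 includes REC-1. The other 5 EBV-negative lines had medians of 11.94 to 12.91, and Raji and Daudi, at 12.79 and 12.42, lay within that range. CIITA, the master regulator of class II, was not low in REC-1, at 10.95, against 10.02 to 12.76 in the other EBV-negative lines. HLA genes are highly polymorphic and similar to each other, so their reads may be split or lost in counting.

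Among interferon-stimulated genes IFIT3, an RNA-binding antiviral protein, had 12.01 in GRANTA519, 12.57 in JVM2, 7.22 in Raji and 7.90 in Daudi, against 5.66 in Ramos to 8.97 in MAVER-1. The MCL lines were apart and the BL lines were not. IFI44L was at 15.27 in JVM2 and 9.41 in Daudi but at 5.19 and 5.17 in GRANTA519 and Raji, against 4.55 to 6.69 in EBV-negative lines. The median of the 28 genes within a line was 12.44 in JVM2, 8.25 in GRANTA519, 7.08 in Raji and 7.76 in Daudi, against 7.13 to 9.07 in EBV-negative lines. JVM2 was the highest, and the other 3 EBV-positive lines lay below MAVER-1.

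**Figure D4:**
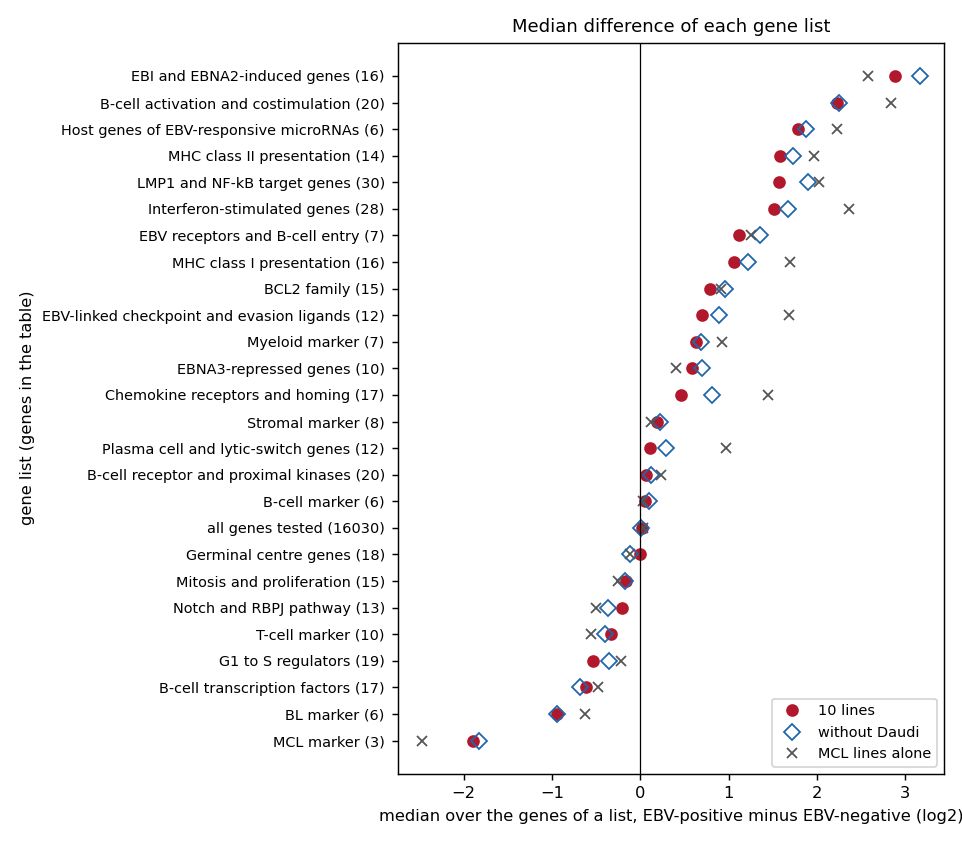
Median difference of each gene list, EBV-positive minus EBV-negative lines, in log2 units on the horizontal axis; filled circles use the 10 lines, open diamonds leave out Daudi and crosses use MCL lines alone. EBV- and EBNA2-induced genes stand highest at 2.88, all genes tested stand at 0.01, and mitosis genes and B-cell markers stand near 0.

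Several lists stayed near the level of all genes. The median was -0.00 for 18 germinal centre genes, 0.06 for 20 genes of the B-cell receptor, -0.16 for 15 mitosis genes and 0.05 for 6 B-cell markers. Of the 17 B-cell transcription factor genes 4 had an unadjusted p under 0.05, all lower in EBV-positive lines, namely KLF2, FOXO1, BACH2 and TCF3, beside 3.16% lower among all genes tested. IKZF3, the gene of the lymphoid factor Aiolos, lay between 12.53 and 13.19 in EBV-positive lines and between 11.93 and 12.48 in EBV-negative lines. BCL2L11, the gene of the death activator BIM that EBNA3 proteins are known to repress, ranged from 7.84 in JVM2 to 11.98 in Raji, against 4.55 in Jeko-1 to 12.92 in MAVER-1, a difference of 1.52 ± 1.67. Within the BCL2 family 1 of 15 genes, BAX, did not overlap, at 11.85 to 12.42 against 10.14 to 11.78, a narrow gap. IKZF3 was likewise 1 of 17 in its list. All EBV-positive lines lay above all EBV-negative lines for 0.767% of all genes tested. The other lists had medians of 1.78 for 6 host genes of EBV-responsive microRNAs, 1.12 for 7 EBV receptor and entry genes, 0.79 for 15 BCL2 family genes, 0.70 for 12 checkpoint and evasion ligands and 0.59 for 10 EBNA3-repressed genes. The median was 0.46 for 17 chemokine receptor and homing genes, 0.11 for 12 plasma cell and lytic-switch genes, -0.20 for 13 Notch pathway genes, -0.53 for 19 G1 to S regulators and -0.62 for the 17 B-cell transcription factor genes. Marker lists had medians of 0.63 for 7 myeloid, 0.19 for 8 stromal, -0.34 for 10 T-cell, -0.94 for 6 BL and -1.89 for 3 MCL markers.

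As lists, 17 of the 30 LMP1 and NF-kB targets had an unadjusted p under 0.05 within MCL, all higher, where 7.36% of all genes tested were higher and 4.28% lower. Of the interferon-stimulated genes 13 of 28 were, all higher, and of the EBV- and EBNA2-induced genes 5 of 16 were higher and 1 lower. GRANTA519 and JVM2 both lay above all 5 EBV-negative MCL lines in 15 of the 30 LMP1 and NF-kB targets, in 5 of the 28 interferon-stimulated genes and in 6 of the 16 EBV- and EBNA2-induced genes, and for 8.16% of all genes tested.

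Within MCL the comparison of GRANTA519 and JVM2 with the 5 EBV-negative lines gave 58 called genes, 48 higher (0.299%) and 10 lower (0.0624%). The spread was estimated from all 10 lines. The genes named are the 12 highest and 9 of the 10 lower, chosen after their values were seen. Highest was SLAMF7, a receptor of activated lymphocytes and plasma cells, at 11.52 in GRANTA519 and 15.87 in JVM2, against 4.81 in Z-138 to 7.60 in Mino, a difference of 7.93 (adjusted p of limma 0.028). LAMP3, a lysosomal protein of mature dendritic cells, followed at 11.43 and 12.95 against 4.55 to 5.32 (7.41, adjusted p 0.000605). CD200, an inhibitory surface ligand, had 10.66 and 10.23 against 4.55 to 5.07 (5.70, adjusted p 0.000553).

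CD274, which encodes the checkpoint ligand PD-L1, had 9.36 in GRANTA519 and 12.58 in JVM2, against 5.18 in Jeko-1 to 6.64 in Z-138, a difference of 5.15 within MCL (adjusted p of limma 0.049). In BL it was 7.20 in Raji and 5.14 in Daudi, against 5.66 in Ramos. CDK6, a kinase that drives entry into S phase with D-type cyclins, had 11.08 in GRANTA519 and 11.12 in JVM2, against 4.55 in Jeko-1 to 7.94 in Z-138 (5.22, adjusted p 0.036). Raji, Daudi and Ramos had 11.51, 12.03 and 11.38, so CDK6 was high in all 3 BL lines whatever their EBV status. IFIT3 was called too, with a difference of 4.86 (adjusted p 0.043), as were SERPINB10, SVIP, SPART, GUCY1B1, SCIMP, MYO6 and FEZ1. For SERPINB10 the direction was fixed by the filter, as said above.

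**Figure D5:**
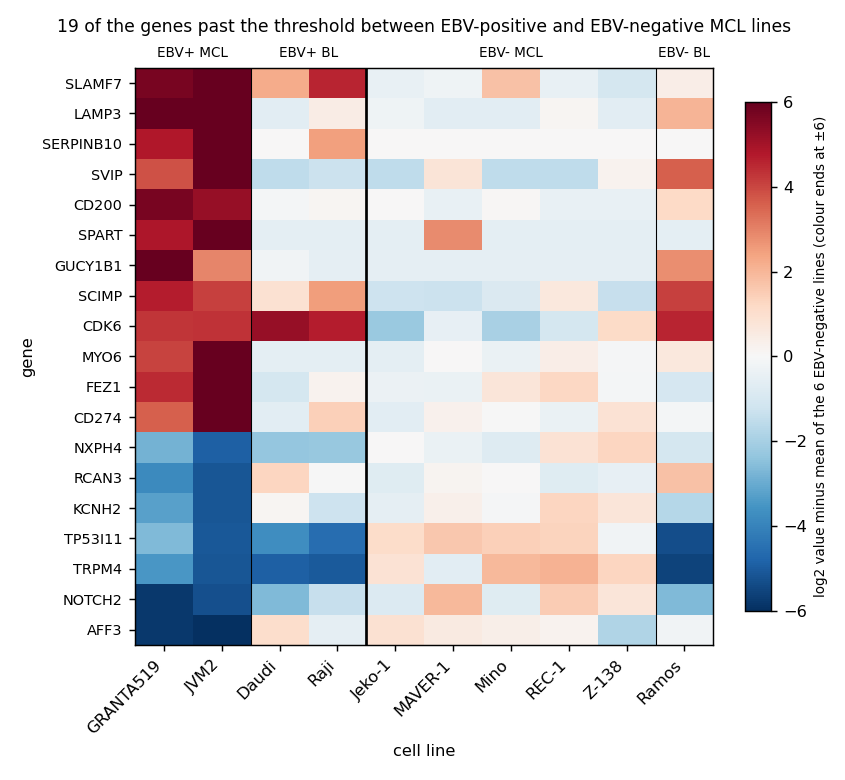
The 12 highest and the 7 lowest of the genes past the threshold between EBV-positive and EBV-negative MCL lines (rows), in the 10 lines (columns), as the log2 value minus the mean of the 6 EBV-negative lines. LAMP3, CD200, MYO6 and AFF3 stand apart in GRANTA519 and JVM2 and not in Raji or Daudi, whereas CDK6 is high in all BL lines.

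Lower in the EBV-positive MCL lines were NOTCH2, a Notch receptor (5.96 and 6.46 against 10.92 to 13.67), AFF3, a transcription elongation factor gene (5.83 and 5.35 against 9.82 to 12.53), TGFBR2, the type II receptor of TGF-beta (7.51 and 5.86 against 9.63 to 10.61), and IGF1R, the receptor of insulin-like growth factor 1 (7.05 and 5.35 against 9.11 to 10.17). Also lower were the ion channel genes TRPM4 and KCNH2, and TP53I11, RCAN3 and NXPH4. With voom 0 lower genes were called within MCL, and the lower genes named here had an adjusted p of voom of 0.121 to 0.155. With each of the 10 lines left out in turn, IGF1R stayed past the threshold in 2 fits and NXPH4 in 3. DTX1, a Notch target gene, had 10.58 in GRANTA519 and 5.80 in JVM2 against 13.09 in MAVER-1 to 15.38 in REC-1, with an adjusted p of 0.069. JVM2 held the higher value in 33 of the 48 genes that were higher. Within BL 26 of these 48 had a positive difference, beside 48.05% of all genes tested, which is near that share.

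The calls within MCL changed when JVM2 was left out. Without it 17 genes were called, 11 of them among the 58, and of the genes named from this comparison LAMP3, CD200, GUCY1B1 and MYO6 remained. The difference in CD274 was then 3.55 (adjusted p of limma 0.35) and that in CDK6 5.20 (0.30). With each of the 10 lines left out in turn, CD274 stayed past the threshold in 4 fits, CDK6 in 2 and IFIT3 in 3, with adjusted p of limma of 0.0077 to 0.35, 0.012 to 0.30 and 0.035 to 0.40. CD274 was lost without any 1 of the 5 EBV-negative MCL lines, and CDK6 and IFIT3 without Daudi, Raji or GRANTA519. All 3 were lost under the stricter filter (adjusted p 0.088, 0.057 and 0.065) and with voom (0.11, 0.090 and 0.051). LAMP3 and CD200 stayed past the threshold in all 18 alternatives that tested them. The stricter filter removed both genes, so it did not test them. Without GRANTA519 there were 352 calls, 51 of them among the 58, and without Z-138 there were 35. JVM2 also differs in MCL markers, with SOX11 at 4.84, or 1 read, against 10.93 in GRANTA519 and 9.90 to 11.42 in the EBV-negative MCL lines, and with the lowest CCND1 of the 7 MCL lines compared, 12.59 against 15.27 to 17.35 in EBV-negative MCL lines. Their part in the result was not tested.

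Within BL, Raji and Daudi against Ramos gave 15 calls, 4 higher (0.025%) and 11 lower (0.0686%), which rest on a single EBV-negative line. The difference in BL departed from that in MCL for 16 genes, 2 higher (0.0125%) and 14 lower (0.0873%). In GLUL, glutamine synthetase, Raji and Daudi had 10.58 and 10.31 against 5.47 in Ramos, while MCL lines had 11.21 and 12.03 against 11.55 to 12.73. QPCT, glutaminyl-peptide cyclotransferase, was at 14.39 in Ramos and at most 7.12 in the other 9 lines. LAMP3 and SVIP were high in EBV-positive MCL lines and, at 7.23 and 9.65, in Ramos, but at most 5.62 in Raji and Daudi. ALDH1B1, PIEZO2 and RAB27A were the other genes named by the rule. Of these 7, LAMP3 stayed past the threshold in all 9 fits with a line left out (adjusted p of limma 0.0034 to 0.037), PIEZO2 in 6, GLUL in 3, SVIP in 2 and ALDH1B1, QPCT and RAB27A in 1 each. None of the 7 passed with voom or with re-analysed lines alone.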

How the data were processed

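RNA sequencing of 34 lymphoma cell lines was used, 1 library a line. The authors deposited a table of 31975 genes on a log2 scale, after a variance-stabilising transform of their counts. The submitters' processing notes name STAR 2.5.3a, R 3.6.1, DESeq2 1.26.0 and GRCh38 without a role. The counter, annotation, gene filter and use of strand are not given in the sources used here, so overlapping and antisense genes may share reads. Inverting the transform from its lowest value gave whole reads, within 0.05, for 100% of values. The transform compresses differences near the lowest value, so log2 differences of weakly expressed genes understate ratios of reads.

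A gene was tested if 3 or more of the 10 lines stood over 1 log2 unit above the table's minimum. A gene low in every EBV-negative line could pass only through EBV-positive lines, so its direction was fixed by the filter. The values were fitted with limma 3.58.1 in R 4.3.3, with pathology and EBV status, an intensity-dependent prior and Benjamini-Hochberg adjustment over 16030 genes. The contrasts within MCL, within BL and between them came from 4 group means. Of 346 entries in 25 gene lists 345 were in the table, and FCGR3A was not used here. Gene names and coordinates came from RefSeq (GRCh38.p14), with 31574 identifiers matched. The members and lists were chosen with earlier results of these data known, and EBV status is not in the labels. Named genes were 13 list genes, every list gene past a threshold, and the 5 highest and lowest interactions. Other genes named were chosen after their values were seen. The fit was tested on simulated data with a capped spread between lines and no baseline difference between MCL and BL. That test does not show how well changes are recovered in these lines. Alternatives were no covariate, other filters, median-centring, quantile normalization, a constant prior, voom, all 34 lines, re-analysed lines alone and leaving out each line. Of the genes past the threshold within MCL, 1 is not reported here.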

Additional observations from a re-analysis of the deposited data

Results flagged for a closer look

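Some lines stood apart from the rest of their group in genes named above, in 21 of 134 groups checked. Chance flags about 1 in 20 among genes not chosen by their values. Many of the genes checked were named from these same values, so the count cannot be compared with that rate. Ramos stood apart from the other 5 EBV-negative lines in GLUL (5.47), ALDH1B1 (4.90), LAMP3 (7.23), QPCT (14.39), CD200 (6.18), GUCY1B1 (7.88), SCIMP (10.61), TRPM4 (4.98), TP53I11 (5.40) and RCAN3 (11.43). It is the one BL line among them, so line and pathology cannot be told apart there. REC-1 stood apart in SH3RF1 (5.97), LSAMP (5.64) and ME1 (8.96), MAVER-1 in SPART (7.96) and GBP1 (6.46), Mino in CCL3L3 (12.09) and ADGRA3 (4.75, a single read), and Z-138 in KCNMA1 (5.22). Among EBV-positive lines GRANTA519 stood apart in TRPM4 (7.07), Daudi in ABTB2 (4.55, no read) and Raji in CIBAR2 (5.20).

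The EBV difference in BL departed from that in MCL, by the interaction term of limma at adjusted p under 0.05, for the genes named by the rule. The adjusted p was 0.045 to 0.048 for GLUL, ALDH1B1, SVIP, QPCT and RAB27A, which no longer passed under a constant prior, and all 7 failed with voom and with re-analysed lines alone. It was higher in BL by 5.61 for GLUL and 5.06 for ALDH1B1. The BL difference minus the MCL difference was -10.86 for SVIP, -9.56 for LAMP3, -9.21 for QPCT, -8.76 for PIEZO2 and -8.24 for RAB27A. Each of these rests on Ramos as the single EBV-negative BL line.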

How the results depend on the processing

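No paired analysis was possible because the labels carry no replicate numbers and tie no line of one group to a line of another. Over all lines limma called 0 genes without the covariate, under both other filters, median-centring, quantile normalization, a constant prior and voom. It called 56 with all 34 lines, 6 with re-analysed lines alone, and 0 to 62 with a line left out, 62 without Ramos, where only MCL holds both groups. Within MCL the count of 58 became 293 without a filter, 13 with the stricter one, 17 with voom, 134 with all 34 lines and 22 with re-analysed lines alone, and 17 to 352 with a line left out. Within BL the count of 15 became 117 without a filter, 5 with the stricter one, 5 with median-centring, 4 with quantile normalization, 1 with voom, 9 with all 34 lines and 2 with re-analysed lines alone, and 2 to 13 with a line left out. The interaction count of 16 became 125 without a filter, 0 with the stricter one, 10 with quantile normalization, 7 with a constant prior and 2 each with voom and re-analysed lines alone, and 6 (Z-138) to 44 (GRANTA519) with a line left out. The cause was not tested. Under the stricter filter 984 of 12228 genes had an unadjusted interaction p under 0.05. The B2M difference of 1.12 became -0.30 without JVM2 and 2.57 without Ramos. Over all lines the difference also changed sign in genes named for the interaction, to -0.62 for GLUL and 0.12 for QPCT without Ramos, and to -0.71 for RAB27A without JVM2. Alternatives for the contrasts within MCL, within BL and between them, other than MCL lines alone, were added after seeing the data. With 1 library a line and 1 EBV-negative BL line, these data cannot separate EBV from other differences between lines.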
